A study of Mus musculus with 21 samples.

Results

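Notochord progenitors made in culture (NotoPdiff) were compared with mesoderm progenitors made in culture (MPdiff) across the transcriptome. Every gene with 5 FPKM or more in either library was compared by the log2 ratio of (FPKM + 1) in NotoPdiff over (FPKM + 1) in MPdiff, where FPKM is a fragment count scaled to transcript length and library size. Of the 23983 genes listed, 8779 met that minimum. Among them 271 were 3-fold or more higher in NotoPdiff, 3.09% of those compared, and 86 were 3-fold or more higher in MPdiff, 0.98%. The same ratio was then read for notochord progenitors (NotoP) over mesoderm progenitors (MP) sorted from embryos at E8.5 and at E9.5. Of the 357 genes, 122 stayed under 3-fold at both embryonic stages and are called culture-only here. They were 76 genes higher in NotoPdiff (0.866% of all genes compared) and 46 genes higher in MPdiff (0.524%). Each condition had 1 library, so the differences describe these libraries, with no spread between replicates and no test.

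The notochord is the midline rod of the vertebrate embryo. It patterns the neural tube and the somites, largely through the secreted ligand Shh, and its progenitors lie at the caudal end of the embryo. T (brachyury) and Foxa2 are transcription factors needed to make it, whereas paraxial mesoderm progenitors in the same caudal region also express T but lack Foxa2 and go on to form the presomitic mesoderm and the somites.

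Both cultures, and the neuro-mesodermal culture NMPdiff used here as a further reference, came from F1G4 mouse embryonic stem cells of C57BL/6N x SV129 background. The line carried a doxycycline-responsive Foxa2-IRES-EGFP transgene at Rosa26, a T BAC driving H2B-mCherry and the doxycycline-dependent transactivator, and a Noto BAC driving H2B-mTurquoise. All 3 received 10 ng/ml bFGF and then the Wnt agonist CHIR99021, to day 4 for NotoPdiff and MPdiff and to day 3 for NMPdiff. NotoPdiff alone received 1 ng/ml doxycycline, from day 2 to day 4, so that Foxa2 was induced in T-expressing cells. NotoPdiff were sorted as positive for both reporters, MPdiff and NMPdiff as positive for T and negative for Noto. Cell state, doxycycline and the Foxa2 transgene therefore cannot be told apart in this comparison, and the level of Foxa2 does not separate transgene from endogenous transcripts. Embryonic cells came from a different line with T, Noto and Foxa2 reporters on BACs, in embryos of Theiler stage 12 (E8.5) and 16 (E9.5). NotoP were positive for all 3 reporters, MP positive for T alone, both from caudal ends, and trunk notochord, from the trunk, positive for the same 3 reporters. By the study's methods a stricter, Foxa2-high gate was used for both trunk libraries and for NotoP at E9.5 but not for NotoP at E8.5, so gate and stage cannot be told apart between the NotoP libraries, nor gate and tissue at E8.5.

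The labels were first set against marker genes. Of 21 compared notochord genes, 20 were 3-fold higher in NotoPdiff, with a median log2 ratio of 3.57 against -0.01 over all 8779 genes. Of the 21, 15 met the minimum of 5 FPKM through NotoPdiff alone, which set their direction. The list includes Noto and T, whose reporters were used for sorting, and the induced Foxa2, so it checks the labels only in part. Fgf8 was the exception, at 17.0 FPKM in NotoPdiff and 17.6 FPKM in MPdiff. MPdiff carried the presomitic markers Dll1 at 88.2 FPKM, Tbx6 at 33.2 and Msgn1 at 25.1, but NotoPdiff also had them, at 41.5, 21.3 and 11.2 FPKM. Of 17 compared presomitic and somite genes, 15 were lower in NotoPdiff and 3 of those reached 3-fold. The minimum was met through MPdiff alone by 4 of the 17. MPdiff further contained lateral plate transcripts, with Foxf1 at 36.6 FPKM against 0.0402 in NotoPdiff and Hand1 at 26.4 against 0.0513. Of 22 genes listed for lateral plate, intermediate mesoderm and endothelium, 6 met the minimum, 4 of them through MPdiff alone, and Foxf1, Hand1 and Osr1 were the 3 at 3-fold. In a bulk sorted sample, fewer cells of a type and less RNA per cell cannot be told apart. Endoderm genes were represented in NotoPdiff, where 4 of 5 compared genes of that list were 3-fold higher than in MPdiff (Sox17, Trh, Cldn6 and Krt19, of which the claudin and the keratin also belong to epithelia in general). The median log2 ratio of the 5 was 2.45, and 3 of them met the minimum through NotoPdiff alone, which set their direction. Of the 19 genes of that list in the table, 9 were under 1 FPKM in both cultures. Among these 9, Ttr, Hnf4a and Afp, named after their values were seen, were at 0 to 0.233 FPKM. The E8.5 MP library held Afp at 62.2 FPKM, Cer1 at 20.9 and Ttr at 8.5. The part of endoderm transcripts in the cultured and embryonic ratios was not tested.

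The cultured libraries were much the deepest. Estimated from the smallest steps between FPKM values, NotoPdiff held about 20531000 fragments, MPdiff 22998000 fragments and NMPdiff 27899000 fragments. The estimates for the 4 embryonic progenitor libraries ran from 385000 fragments in MP at E8.5 to 2186000 fragments in MP at E9.5. For each of these 4 the study itself lists more de-duplicated mapped reads than the fragments estimated here. By the study's methods MP at E8.5 also came from far fewer sorted cells than the other 3, a sampling limit that the counting intervals do not cover. A transcript at 5 FPKM thus rested on about 103 fragments per kilobase in NotoPdiff and 115 in MPdiff, but on 1.93 per kilobase in MP at E8.5. The bulk of the transcriptome was level between the cultures, with 91.2% of the compared genes under 2-fold. The share under 2-fold was 86.5% between NotoP and MP at E9.5 and 61.9% at E8.5.

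The largest differences towards NotoPdiff lay in genes that also marked NotoP in the embryo. Vtn, the matrix glycoprotein vitronectin, was at 52.0 FPKM in NotoPdiff, 0.324 in MPdiff and 0.0821 in NMPdiff, a 40.0-fold difference on the FPKM + 1 scale. In the embryo it was at 51.3 FPKM in NotoP and 5.95 in MP at E8.5, and at 18.8 and 0 at E9.5. Sepp1, the secreted selenium carrier selenoprotein P, was at 224 FPKM in NotoPdiff against 5.76 in MPdiff, and Cldn6, a tight junction claudin, was at 126 against 3.38. Krt18, a keratin of simple epithelia, was at 212 FPKM against 7.33, and Calca, which encodes calcitonin and the peptide CGRP, was at 27.7 against 0.397. All of these were higher in NotoP than in MP at both stages. Rpl34-ps1 and Rnaset2a also ranked among the 12 largest differences, but both belong to near-identical gene copies between which reads can be split, and their embryonic ratios changed sign between the stages, so their values are uncertain.

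In the other direction the largest differences included mesodermal regulators. Besides Foxf1 and Hand1, Crabp1, a cytoplasmic retinoic acid binding protein, was at 154 FPKM in MPdiff and 11.9 in NotoPdiff, a 12.0-fold difference, and it was also higher in MP at both stages (188 against 33.2 FPKM at E8.5 and 116 against 12.0 at E9.5). Foxf1 was 3-fold higher in MP at E8.5 alone, with 26.8 FPKM in MP and 0.778 in NotoP. At E9.5 it was at 0.566 FPKM and 0. Tbx3, a T-box repressor, was at 9.10 FPKM in MPdiff and 0.178 in NotoPdiff, and Unc5c, a netrin receptor, was at 11.8 and 0.717.

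Counted over all 3-fold genes, 97 of the 271 genes higher in NotoPdiff were 3-fold higher in NotoP at both stages, 66 at E8.5 alone and 26 at E9.5 alone. Among the 86 genes higher in MPdiff, 9 were 3-fold higher in MP at both stages, 15 at E8.5 alone and 11 at E9.5 alone. The remaining genes, beside the culture-only ones, were 4 and 1 whose embryonic calls opposed each other and 2 and 4 that were 3-fold the other way at 1 stage. None was 3-fold the other way at both stages. Culture-only genes made up 28.0% of the genes higher in NotoPdiff (Wilson 95% interval 23.0 to 33.7) and 53.5% of those higher in MPdiff (43.0 to 63.7). These intervals treat genes as independent draws and leave out the fragment counting error of each call. Of all compared genes, 77.8% were under 3-fold at both stages, so both shares stood below the background. Without the thinner E8.5 libraries, with E9.5 as the only embryonic reference, the shares were 53.1% and 74.4%, against 95.02% of all compared genes under 3-fold at E9.5. A pseudocount of 5 FPKM in place of 1 left 29 and 17 culture-only genes.

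**Figure D1:**
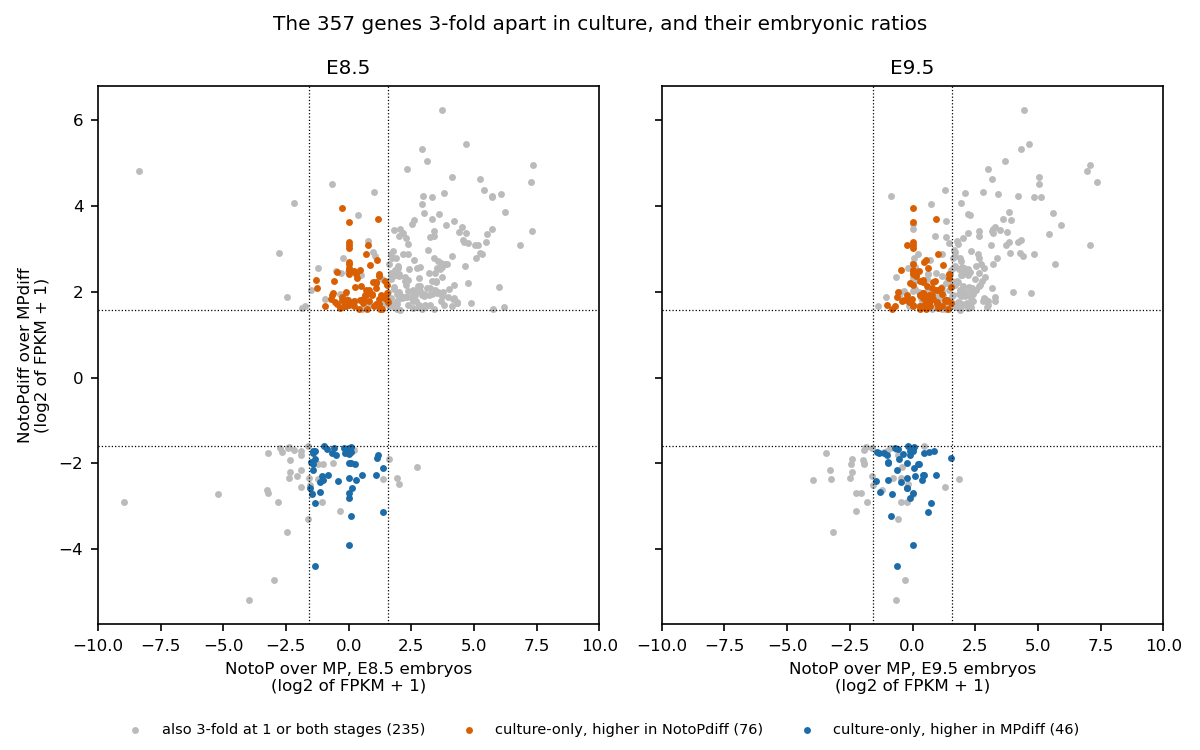
Each point is 1 of the 357 genes that were 3-fold or more between NotoPdiff and MPdiff. The vertical axis is the log2 ratio of FPKM + 1 in NotoPdiff over MPdiff and the horizontal axis the log2 ratio of NotoP over MP at E8.5 (left) and E9.5 (right), with dotted lines at 3-fold. Grey points mark the 235 genes also 3-fold at 1 or both stages, orange points the 76 culture-only genes higher in NotoPdiff and blue points the 46 higher in MPdiff, which lie between the vertical dotted lines by their definition.

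The culture-only genes were read for their levels in the embryonic progenitors. Of the 76 higher in NotoPdiff, 44 reached 5 FPKM in 1 or more NotoP or MP library, 19 reached 1 to 5 FPKM and 13 stayed under 1 FPKM in all 4. For the 46 higher in MPdiff the counts were 30, 9 and 7. These 57.9% and 65.2% at 5 FPKM stood beside 95.1% of all compared genes. With a pseudocount of 1, genes under 1 FPKM in all 4 libraries could not reach 3-fold in the embryo. Those 13 and 7 genes were thus culture-only by the rule, and the lower shares at 5 FPKM follow from it in part. The 44 well expressed genes had median NotoP over MP log2 ratios of 0.48 at E8.5 and 0.53 at E9.5, against medians of 0.04 and -0.00057 over all compared genes. The 30 well expressed genes higher in MPdiff had medians of -0.63 and -0.21. By sign alone, 35 of the 76 and 16 of the 46 had the same direction as in culture at both stages, and 5 and 8 had the other direction at both. Signs were not counted in this way over all compared genes, so these counts have no background.

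Upk3a, a urothelial plaque membrane protein, led the culture-only genes higher in NotoPdiff. It was at 15.6 FPKM in NotoPdiff, 0.0786 in MPdiff and 0 in NMPdiff, or about 355 fragments against 2 between NotoPdiff and MPdiff. In the embryo it was at 7.67 FPKM in NotoP and 9.39 in MP at E8.5 and was listed at 0 in both at E9.5. Its E8.5 values rested on few fragments, since 5 FPKM there was about 5.30 fragments per kilobase in NotoP and 1.93 in MP. Egfr, the receptor for epidermal growth factor, was at 6.33 FPKM in NotoPdiff, 0.135 in MPdiff and 1.36 in NMPdiff, while NotoP and MP had 0 and 0 at E8.5 and 1.19 and 0.586 at E9.5. Trunk notochord had Egfr at 0.94 FPKM at E8.5 and 8.77 at E9.5.

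Sox17, a transcription factor of definitive endoderm, was at 7.46 FPKM in NotoPdiff, 0.545 in MPdiff and 0.599 in NMPdiff. It was at 3.58 FPKM in NotoP and 5.37 in MP at E8.5 and listed at 0 in both at E9.5 and in trunk notochord at both stages. Sox17 was the single culture-only gene of the endoderm list, of which 5 of the 19 genes in the table were compared. Esrp1, a splicing regulator of epithelial cells, was at 11.3 FPKM in NotoPdiff, 1.53 in MPdiff and 22.3 in NMPdiff, and in the E8.5 embryo it was higher in MP (8.5 FPKM) than in NotoP (2.85).

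Several signalling genes were in the same set. Tgfbr3, the TGF-beta co-receptor betaglycan, was at 12.3 FPKM in NotoPdiff, 1.65 in MPdiff and 15.8 in NMPdiff. In the embryo it was low, at 1.87 and 1.29 FPKM in NotoP and MP at E8.5 and at 2.13 and 0.151 at E9.5. Its E9.5 ratio without a pseudocount was 14.1 (exact Clopper-Pearson 95% interval 3.42 to 124, from about 20 and 2 fragments), so the pseudocount placed Tgfbr3 among the culture-only genes. Egflam, a matrix protein of the agrin family, was at 14.0 FPKM in NotoPdiff and 1.78 in MPdiff, and at 18.7 and 6.20 in NotoP and MP at E9.5. Its E9.5 ratio without a pseudocount was 3.03 (2.25 to 4.12).

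Serinc5, a multipass membrane protein, was one of the culture-only genes measured closely at both stages. It was at 27.2 FPKM in NotoPdiff, 3.59 in MPdiff and 3.11 in NMPdiff, a raw ratio of 7.57 (6.85 to 8.39, counting error only). Its NotoP over MP ratios were 1.88 (1.26 to 2.88) at E8.5 and 2.37 (1.97 to 2.85) at E9.5, in the same direction and below the culture ratio. Stx7, a syntaxin of late endosomes, was at 27.4 FPKM in NotoPdiff and 4.96 in MPdiff. It was at 14.7 and 22.8 FPKM in NotoP and MP at E8.5 and at 22.9 and 11.7 at E9.5. Of the 75 culture-only genes higher in NotoPdiff with a transcript length, the lower bound of the culture ratio was over 3 for 69. The genes were chosen from the same culture values, so that count is no separate evidence. The upper bound of the embryonic ratio was under 3 for 20 at E8.5, 28 at E9.5 and 12 at both stages. For the others, a 3-fold embryonic difference was not excluded at this depth.

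Both compared Notch list members that were 3-fold in culture were culture-only, of 12 compared. Notch2, a Notch receptor, was at 61.0 FPKM in NotoPdiff, 18.5 in MPdiff and 11.5 in NMPdiff, a raw ratio of 3.30 (3.18 to 3.41). In the embryo its ratio was 1.16 (0.914 to 1.49) at E8.5 and 1.23 (1.04 to 1.44) at E9.5, and trunk notochord had it at 53.6 and 36.7 FPKM, above the 14.3 to 25.9 FPKM of the 4 progenitor libraries. Hey1, a Notch effector, was at 36.4 FPKM in NotoPdiff and 11.4 in MPdiff, with 43.6 and 25.9 in NotoP and MP at E8.5 and 64.5 and 23.8 at E9.5. Dusp4, a phosphatase that limits ERK signalling downstream of Fgf, was at 52.1 FPKM in NotoPdiff, 14.2 in MPdiff and 39.8 in NMPdiff, and at 74.8 and 84.97 in NotoP and MP at E9.5. The remaining 10 compared Notch genes were under 3-fold, and the list's median log2 ratio was -0.01.

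Among culture-only genes that stayed under 1 FPKM in the 4 progenitor libraries, Gas6, a secreted ligand of the TAM receptor kinases, was at 11.6 FPKM in NotoPdiff, 0.486 in MPdiff and 3.21 in NMPdiff. Chrna9, a nicotinic receptor subunit, was at 7.12 FPKM in NotoPdiff and was listed at 0 in MPdiff. Dcpp3 and Dcpp1 were at 12.2 and 7.97 FPKM in NotoPdiff and at 0.0713 and 0 in MPdiff, but they are neighbouring paralogs between which reads can be split. Hist1h2ap, at 33.0 FPKM in NotoPdiff, 4.42 in MPdiff and 92.2 in NMPdiff, is a multi-copy histone gene and equally uncertain.

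**Figure D2:**
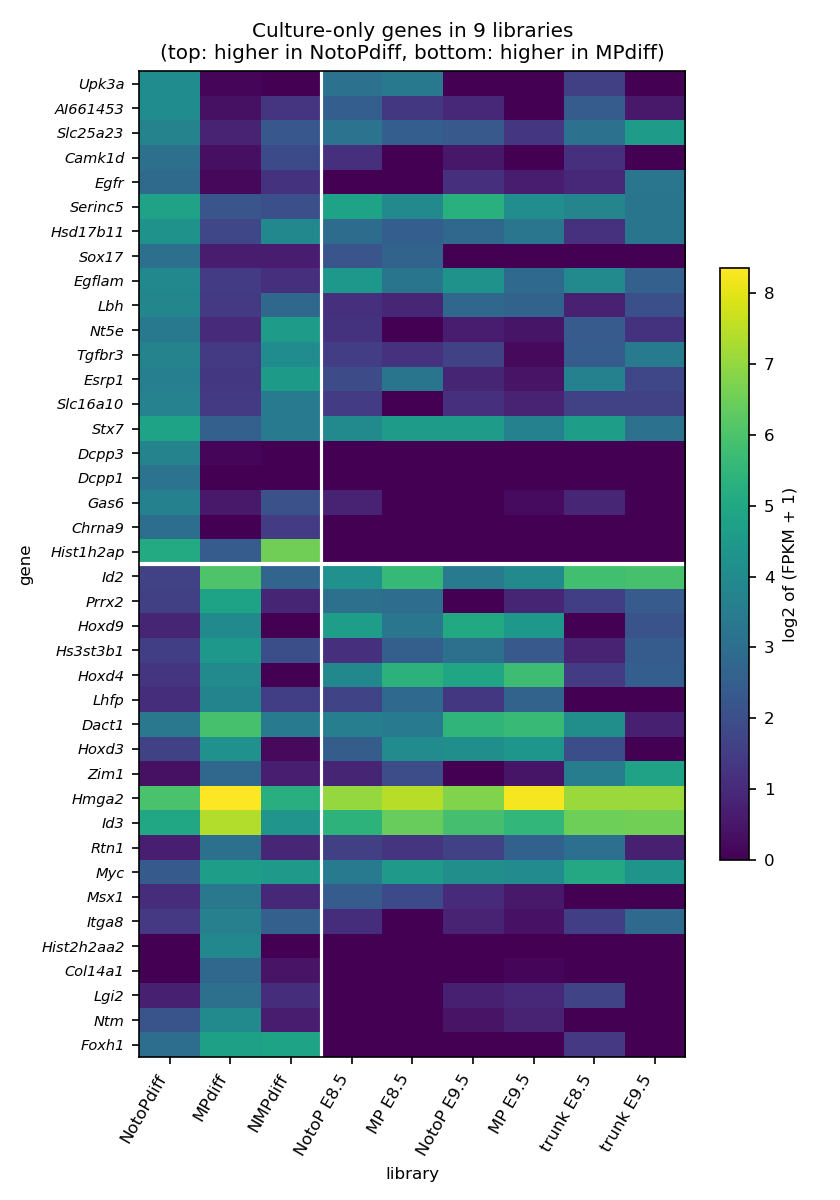
Colour gives log2(FPKM + 1) of the 40 largest culture-only genes (rows: in each direction the 15 largest with 1 FPKM or more in an embryonic progenitor library and the 5 largest under 1 FPKM) in the 9 RNA libraries (columns), with genes higher in NotoPdiff above those higher in MPdiff. The first columns show the contrast that chose the genes, and the NMPdiff column lies near NotoPdiff in some rows and near MPdiff in others, or above both, as for Nt5e, which was at 9.45 FPKM in NotoPdiff, 1.03 in MPdiff and 23.4 in NMPdiff.

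Id2, an inhibitor of bHLH transcription factors and a common target of BMP signalling, was the largest culture-only difference in either direction. It was at 64.6 FPKM in MPdiff, 2.14 in NotoPdiff and 5.61 in NMPdiff, a 20.9-fold difference on the FPKM + 1 scale from about 1891 and 56 fragments. In the embryo it leaned the same way, at 46.9 FPKM in MP and 17.8 in NotoP at E8.5 and 15.1 and 9.62 at E9.5, and trunk notochord had it at 55.3 and 59.8 FPKM. Id3, of the same family, was at 167 FPKM in MPdiff, 31.0 in NotoPdiff and 19.4 in NMPdiff, with 84.4 and 41.6 in MP and NotoP at E8.5 but 45.6 and 58.8 at E9.5. Id1 was 4.26-fold higher in MPdiff, at 70.4 against 15.7 FPKM, and 3-fold higher in NotoP at E8.5, so it was not culture-only.

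The BMP and TGF-beta list held 8 genes at 3-fold of 17 compared, 3 higher in NotoPdiff and 5 higher in MPdiff, with a median log2 ratio of -0.92. The 5 higher in MPdiff were Id1, Id2, Id3, Msx1 and Msx2. Msx1, a homeobox repressor, was at 9.07 FPKM in MPdiff, 1.08 in NotoPdiff and 0.891 in NMPdiff, whereas NotoP had 4.40 and MP 2.69 at E8.5 and 1.00 and 0.474 FPKM at E9.5. Those higher in NotoPdiff were the BMP antagonists Nog and Chrd and the ligand Bmp7, which was at 43.4 FPKM against 5.41 in MPdiff. Bmp4, also a ligand, was 2.66-fold higher in MPdiff (15.0 against 5.01 FPKM) and did not reach the limit.

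Prrx2, a homeobox gene of mesenchyme, was at 27.5 FPKM in MPdiff, 2.03 in NotoPdiff and 0.825 in NMPdiff, and at 6.90 and 7.52 in MP and NotoP at E8.5. Dact1, an intracellular regulator of Wnt signalling, was at 59.5 FPKM in MPdiff, 9.12 in NotoPdiff and 9.69 in NMPdiff. In the embryo it was at 10.9 and 9.95 FPKM in NotoP and MP at E8.5 and at 42.7 and 49.2 at E9.5, with ratios of 1.12 (0.599 to 2.21) and 0.866 (0.737 to 1.02). Hmga2, a chromatin architectural protein of embryonic cells, was at 325 FPKM in MPdiff and 60.5 in NotoPdiff, and at 299.6 and 107 in MP and NotoP at E9.5. Myc was at 24.0 FPKM in MPdiff, 4.12 in NotoPdiff and 21.5 in NMPdiff. Foxh1, a partner of Smad proteins in Nodal signalling, was at 25.7 FPKM in MPdiff, 7.09 in NotoPdiff and 27.4 in NMPdiff and was listed at 0 in all 4 progenitor libraries.

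Cdh11, a cadherin of mesenchymal cells, had opposite signs in culture and embryo. It was at 15.7 FPKM in MPdiff and 2.88 in NotoPdiff, whereas NotoP had 30.0 and MP 11.1 FPKM at E8.5, a ratio of 2.69 (1.72 to 4.41), and 39.4 and 37.4 at E9.5, a ratio of 1.06 (0.908 to 1.22). Itga8, an integrin subunit, was at 11.6 FPKM in MPdiff and 1.61 in NotoPdiff but at 1.14 FPKM or less in the 4 progenitor libraries. Of the 46 culture-only genes higher in MPdiff, the lower bound of the culture ratio in favour of MPdiff was over 3 for 43, again from the values that chose them. The upper bound of the embryonic ratio was under 3 for 17 at E8.5, 26 at E9.5 and 13 at both stages.

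Hox genes, whose clustered order sets position along the body axis, lay on 1 side throughout. Of the 39 listed, 18 were compared, and all 18 were lower in NotoPdiff than in MPdiff, with a median log2 ratio of -1.69 and a range of -3.12 to -0.62. Of the 18, 13 met the minimum of 5 FPKM through MPdiff alone, which set their direction, and 5 met it in both cultures. At the 3-fold limit 10 were higher in MPdiff and 0 in NotoPdiff, and 6 of the 10 were culture-only (Hoxa2, Hoxb3, Hoxd3, Hoxd4, Hoxd8 and Hoxd9). The medians of the same 18 genes in the embryo were -0.32 at E8.5 and -0.28 at E9.5. Hoxd9 was at 14.8 FPKM in MPdiff, 0.811 in NotoPdiff and 0.0171 in NMPdiff, while NotoP had more of it than MP at both stages, 24.2 against 8.65 FPKM at E8.5 and 32.8 against 21.1 at E9.5. Its raw culture ratio was 0.055 (0.038 to 0.0772) and its embryonic ratios were 2.80 (1.27 to 7.30) and 1.55 (1.17 to 2.07). Hoxb3 was at 30.6 FPKM in MPdiff and 8.44 in NotoPdiff, and at 27.3 and 25.3 in NotoP and MP at E8.5 and 32.2 and 19.9 at E9.5.

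The NMPdiff library placed these levels in order. All 18 Hox genes were lowest in NMPdiff, intermediate in NotoPdiff and highest in MPdiff, and the FPKM of these 18 summed to 34.7, 93.2 and 305. For the 13 that met the minimum through MPdiff alone, that minimum fixed the order of NotoPdiff and MPdiff. Hoxd4, for example, was at 0.014 FPKM in NMPdiff, 1.43 in NotoPdiff and 15.0 in MPdiff, and in the embryo at 14.0 and 40.6 in NotoP and MP at E8.5 and 29.4 and 53.1 at E9.5. The CHIR99021 treatment of NMPdiff ended a day earlier than that of the others, and duration of treatment cannot be told apart from cell state in that ordering.

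**Figure D3:**
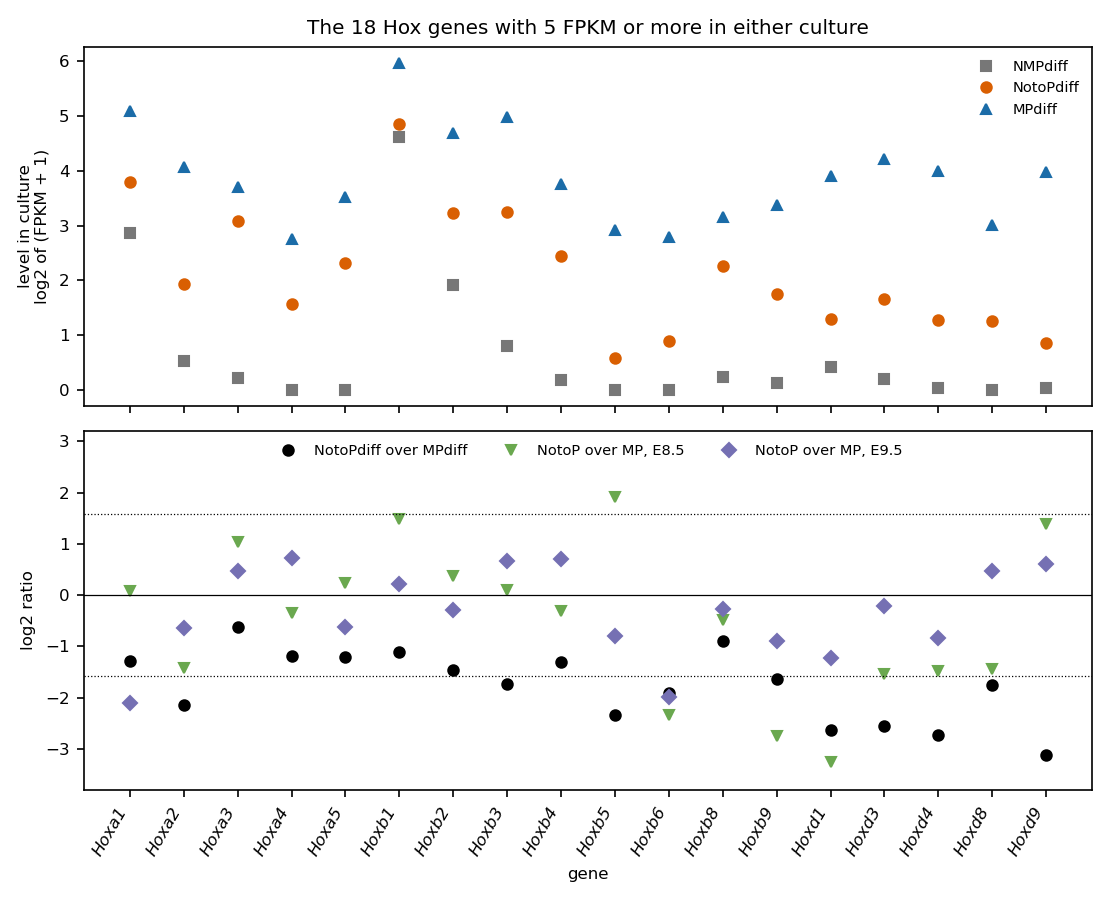
The upper panel gives log2(FPKM + 1) of the 18 compared Hox genes in NMPdiff, NotoPdiff and MPdiff, and the lower panel the log2 ratio of NotoPdiff over MPdiff beside that of NotoP over MP at E8.5 and E9.5. In culture every gene lies below 0, from -0.62 to -3.12, whereas the embryonic ratios scatter on both sides of 0. For 13 of the 18, which met the minimum through MPdiff alone, the side in culture was set by that minimum.

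Aldh1a2, the enzyme that makes retinoic acid in trunk mesoderm, was at 364 FPKM in MPdiff, 70.3 in NotoPdiff and 0.301 in NMPdiff. In the embryo it was higher in NotoP at both stages, at 42.9 FPKM against 16.05 at E8.5 and 31.3 against 7.88 at E9.5, where it was over 3-fold the other way. With Crabp1, it made 2 of 10 compared retinoic acid genes that were 3-fold, both higher in MPdiff. Cyp26a1, which degrades retinoic acid, was at 7.15 FPKM in MPdiff and 4.87 in NotoPdiff.

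Epithelial genes formed the largest group on the NotoPdiff side after the notochord list. Of 18 compared genes of epithelial junctions and keratins, 13 were 3-fold higher in NotoPdiff, 0 in MPdiff, and the median log2 ratio was 2.05. Of the 18, 9 met the minimum through NotoPdiff alone, which set their direction, and 9 met it in both cultures. Krt8, the keratin partner of Krt18, was at 181 FPKM in NotoPdiff, 11.8 in MPdiff and 66.1 in NMPdiff. Cdh1, which encodes E-cadherin, was at 88.5 FPKM in NotoPdiff, 11.1 in MPdiff and 114 in NMPdiff. The 3 culture-only members were Esrp1, Cldn4 and Cldn7. Cldn4 was at 9.92 FPKM in NotoPdiff, 2.14 in MPdiff and 46.3 in NMPdiff, and Cldn7 was at 8.84, 1.19 and 15.7. In these 3 genes and in Cdh1 the NMPdiff library stood above NotoPdiff. Of 10 compared genes of mesenchymal transition, 4 were 3-fold higher in MPdiff, among them Twist1 at 23.3 against 5.08 FPKM, and the median was -1.16. Vim, an intermediate filament of mesenchyme, was level at 153 FPKM in NotoPdiff and 135 in MPdiff.

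Guidance genes went both ways. Of 23 compared, 7 were 3-fold higher in NotoPdiff and 4 in MPdiff. Sema3e, a semaphorin, was at 15.8 FPKM in NotoPdiff and 0.969 in MPdiff, and the Slit ligand Slit2 was at 43.4 and 4.90. The semaphorin and VEGF co-receptors Nrp1 and Nrp2 were at 13.9 and 23.1 FPKM in MPdiff and at 1.54 and 4.96 in NotoPdiff. Ntn1, the netrin ligand, was the culture-only member, at 14.0 FPKM in NotoPdiff, 3.64 in MPdiff and 20.5 in NMPdiff, with 4.94 and 10.9 in NotoP and MP at E9.5.

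Of 11 compared Hedgehog genes 3 were higher in NotoPdiff, among them the pathway target Gli1 at 12.4 against 1.82 FPKM and the receptor Ptch1 at 112 against 23.0, both also higher in NotoP at both stages. Of 19 compared Wnt genes, Wnt6 was 3-fold higher in NotoPdiff (10.5 against 2.12 FPKM) and Wnt5a 3-fold higher in MPdiff (24.7 against 7.44). The Wnt targets Axin2 and Lef1 were at 40.3 and 97.4 FPKM in NotoPdiff and at 61.5 and 205 in MPdiff, both under 3-fold. The Fgf list of 14 compared genes held 2 higher in NotoPdiff and 1 higher in MPdiff, the culture-only ones being Dusp4 and the ligand Fgf10, which was at 6.26 FPKM in MPdiff and 0.799 in NotoPdiff. Node and left-right genes had 3 of 6 compared genes higher in NotoPdiff, namely the ligand Nodal (24.5 against 1.64 FPKM), its antagonist Dand5 (19.3 against 0.901 FPKM) and the motile cilia regulator Foxj1, at 10.9 FPKM in NotoPdiff and listed at 0 in MPdiff. Of 10 compared anterior mesendoderm genes Chrd was higher in NotoPdiff and Frzb in MPdiff, of 3 neural genes Ntn1 and Gbx2 likewise, and of 5 pluripotency genes Fgf5 was higher in NotoPdiff, at 7.77 FPKM against 0.761 in MPdiff and 60.2 in NMPdiff.

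None of the 14 compared amino acid stress genes, 21 cholesterol synthesis genes, 27 secretory pathway and unfolded protein response genes or 15 housekeeping genes was 3-fold in either direction, and the median log2 ratios were -0.51, -0.25, 0.40 and 0.05. By sign, 13 of the 14 amino acid stress genes and 17 of the 21 cholesterol genes were lower in NotoPdiff, and 24 of the 27 secretory pathway genes were higher. Over all 8779 compared genes, 4309 were higher in NotoPdiff and 4470 lower. The hypoxia list had 1 of 22 (Ndrg1) and the basement membrane list 1 of 19 (Lama5), both higher in NotoPdiff. The 31 cell cycle genes had a median of -0.24, with 24 lower in NotoPdiff, and 1 was 3-fold, the inhibitor Cdkn1c at 69.7 FPKM in NotoPdiff and 19.5 in MPdiff. Of 15 compared p53 targets, 14 were higher in NotoPdiff with a median of 0.85, and Trp53inp1, Perp and Plk2 reached 3-fold. Among 11 immediate early and heat shock genes, Cyr61, a secreted matrix protein, was at 79.4 FPKM in NotoPdiff and 16.2 in MPdiff, and Myc was the gene higher in MPdiff.

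**Figure D4:**
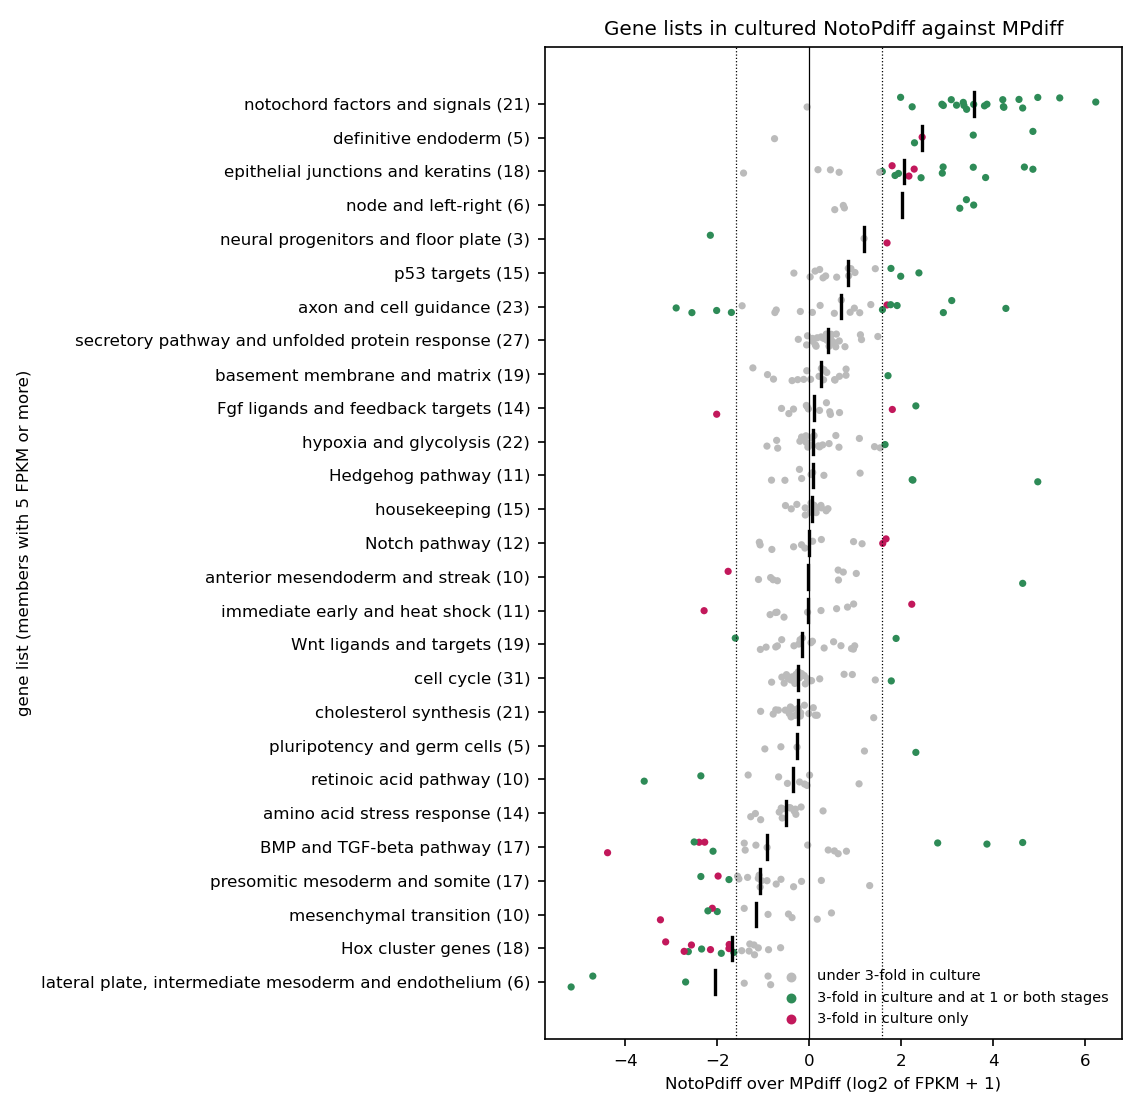
Each point is the log2 ratio of NotoPdiff over MPdiff of 1 compared gene in each of 27 gene lists, and bars mark the list medians. Grey genes are under 3-fold in culture, green ones 3-fold in culture and at 1 or both embryonic stages, and red ones 3-fold in culture alone. The notochord list has a median of 3.57 and the epithelial list of 2.05, the Hox list lies wholly below 0, and the housekeeping list centres at 0.05. The minimum was met in 1 culture alone, which set the direction, by 15 of 21 notochord, 9 of 18 epithelial and 13 of 18 Hox genes.

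Levels in NMPdiff were set beside those of both cultures. Among all 271 genes higher in NotoPdiff, 113 were 3-fold above NMPdiff in NotoPdiff with MPdiff within 3-fold of NMPdiff, and 68 were 3-fold below NMPdiff in MPdiff with NotoPdiff within 3-fold. For the 76 culture-only genes these counts were 25 and 22, and 27 were within 3-fold of NMPdiff in both. Such counts were not made over all compared genes. The genes were chosen by their difference between NotoPdiff and MPdiff, so the counts only describe on which side of NMPdiff they lay. Tgfbr3, Nt5e, Esrp1 and Cldn4 had NMPdiff levels above those of NotoPdiff, whereas Upk3a, Sox17, Serinc5 and Egflam were near their MPdiff levels. On the other side, 55 of 86 genes higher in MPdiff, and 31 of 46 culture-only ones, were 3-fold above NMPdiff in MPdiff with NotoPdiff within 3-fold of it. Myc and Foxh1 were exceptions that lay near the NMPdiff level in MPdiff and below it in NotoPdiff.

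Trunk notochord, which lies anterior to the progenitors, was read for the culture-only genes as well. Of the 76 higher in NotoPdiff, 50 reached 5 FPKM in trunk notochord of 1 or both stages, and 13 of these had stayed under 5 FPKM in NotoP and MP. For the 46 higher in MPdiff the counts were 21 and 5. These 65.8% and 45.7% at 5 FPKM in trunk notochord stood beside 91.2% of all compared genes. Among compared genes under 5 FPKM in NotoP and MP, 208 of 432 reached 5 FPKM in trunk notochord, and among the culture-only ones 13 of 32 and 5 of 16 did. Slc25a23, a mitochondrial carrier, was at 12.2 FPKM in NotoPdiff and 0.789 in MPdiff, at 4.02 and 1.50 in NotoP and MP at E9.5, and at 23.3 in E9.5 trunk notochord. Zim1, an imprinted zinc finger gene, was at 5.96 FPKM in MPdiff and 0.292 in NotoPdiff, yet at 10.7 and 27.2 in trunk notochord. The trunk libraries held an estimated 420000 to 454000 fragments, so a level of 5 FPKM there rested on at most 2.27 fragments per kilobase. By the study's methods they also came from far fewer sorted cells than NotoP at both stages and MP at E9.5.

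Binding of T and Foxa2 had been mapped by ChIP-seq in unsorted day 4 cultures enriched for NotoPdiff, 1 library for each factor, giving 6875 T peaks and 22684 Foxa2 peaks. Distances were taken from a gene's annotated start to the nearest peak summit. Of the 75 culture-only genes higher in NotoPdiff with an annotated start, 66 (88.0%, Wilson 95% interval 78.7 to 93.6) had a T or Foxa2 summit within 50 kb. The share was 90.7% for the 97 genes that were 3-fold higher in NotoP as well at both stages, 76.1% (62.1 to 86.1) for the 46 culture-only genes higher in MPdiff, and 70.3% for the 8387 genes under 3-fold in culture. Within 5 kb the 4 shares were 32.0%, 29.9%, 32.6% and 17.9%. Culture-only genes of both directions had a summit within 5 kb at a similar share (intervals 22.5 to 43.2 and 20.9 to 47.0). The differences between the 4 shares were not tested.

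Summits of both factors lay within 50 kb of 45.3% of culture-only genes higher in NotoPdiff, 58.8% of those also 3-fold at both stages, 28.3% of culture-only genes higher in MPdiff and 21.0% of genes under 3-fold. Overlapping T and Foxa2 peaks were within 50 kb of 20.0%, 18.6%, 8.70% and 5.58%. Within 5 kb, 7 of the 75 culture-only genes higher in NotoPdiff and 0 of the 46 higher in MPdiff (upper bound 7.71%) had summits of both, against 9.28% of those also 3-fold at both stages and 1.63% of genes under 3-fold. The median distance to a Foxa2 summit was 18.01 kb, 15.95 kb, 24.8 kb and 37.5 kb for the same 4 sets, and to a T summit 41.5 kb, 23.6 kb, 68.1 kb and 98.9 kb. Neighbouring genes share peaks, as in the Hoxd cluster, and the intervals count genes as if they were independent. The nearest gene was not shown to be the target of a peak.

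**Figure D5:**
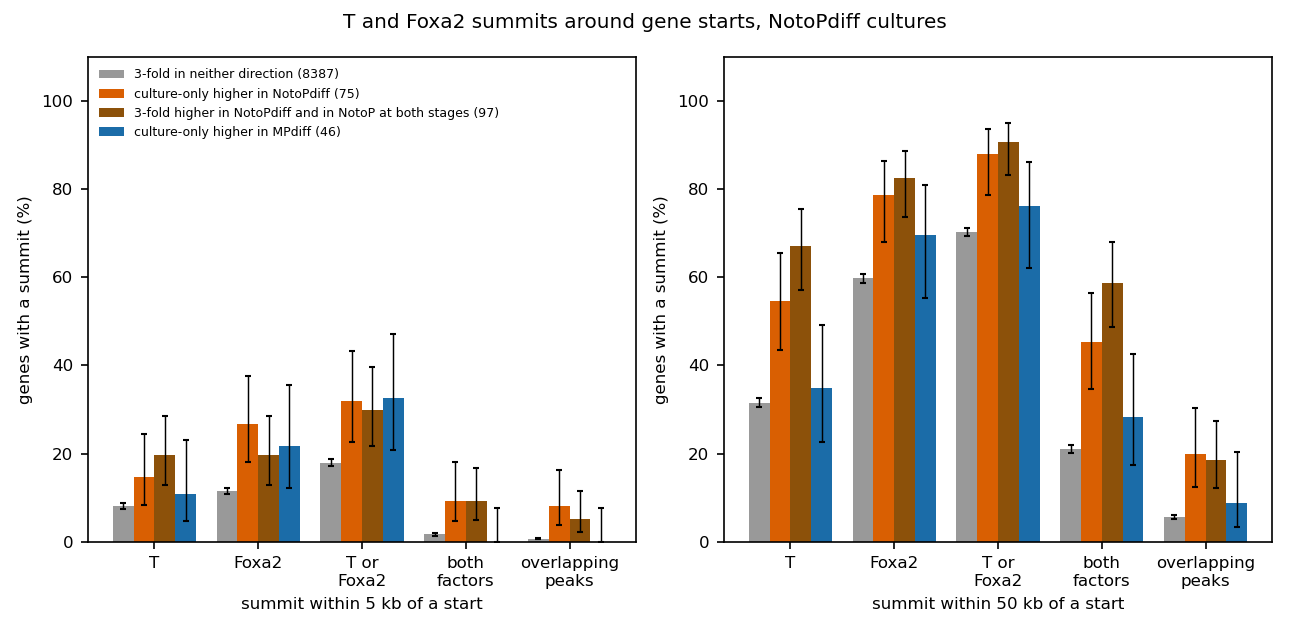
Bars give the percentage of genes with a T or a Foxa2 peak summit within 5 kb and within 50 kb of their start, with Wilson 95% intervals as error bars, for culture-only genes of either direction, for genes 3-fold in culture and at both embryonic stages, and for genes 3-fold in neither direction. Within 50 kb, 88.0% of culture-only genes higher in NotoPdiff and 70.3% of genes 3-fold in neither direction had a summit of either factor.

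Sequence around the summits was read from the mouse genome, build GRCm38 (mm10). The forkhead letters TGTTTAC, searched on both strands within 50 bp of the summit, were in 9.74% of 22680 Foxa2 windows of 101 bp, against 1.61% of windows 10 kb away. The T-box letters TCACACCT were in 2.97% of 6871 T windows against 0.437% away. Of 133 Foxa2 summits within 50 kb of culture-only genes higher in NotoPdiff, 14.3% (9.34 to 21.2) held TGTTTAC, as did 14.0% (7.29 to 25.3) of 57 near those higher in MPdiff and 10.7% of 6331 near all compared genes. Of 161 Foxa2 summits near genes 3-fold higher in NotoP as well at both stages, 17.4% (12.3 to 24.0) held it, with a lower bound above that level. Of the 67 strongest summit windows of 45 named culture-only genes, 12 held either motif. These windows are not all separate. The same Foxa2 window was counted for Hoxd3 and Hoxd4, and another for Hoxd8 and Hoxd9. The Foxa2 and T windows of Frzb overlap and hold the same forkhead match. Such a count was not made over the strongest summits of all compared genes.

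The windows printed here, on the forward strand and with the motif in capitals (GTAAACA is TGTTTAC and AGGTGTGA is TCACACCT on the reverse strand), were chosen after their letters were seen, as examples of summits near culture-only genes that hold an exact match. Their fold enrichments of 6.50 to 16.3 compare with medians of 7.19 over all Foxa2 peaks and 7.45 over all T peaks. A match describes the sequence and is not a shown binding site. The Foxa2 summit in an intron of Camk1d at chr2:5710537-5710637, 4.18 kb from an annotated start, had a fold enrichment of 13.9 and overlapped a T peak, and Camk1d, a calmodulin-dependent kinase, was at 7.51 FPKM in NotoPdiff, 0.276 in MPdiff and 2.70 in NMPdiff. Dusp4 had a Foxa2 summit between genes at chr8:34804510-34804610, 3.05 kb from its start with a fold enrichment of 6.50, which overlapped a T peak. Stx7 had a Foxa2 summit at chr10:24110847-24110947, 38.4 kb away, with a fold enrichment of 12.3. Cyr61 had a Foxa2 summit at chr3:145650354-145650454, 0.419 kb from its start and in an exon of the transcript Gm17501, with a fold enrichment of 7.81. A T summit at chr3:145684982-145685082, 35.0 kb from the Cyr61 start, overlapped a Foxa2 peak, had a fold enrichment of 7.30 and held the T-box letters. Frzb, a secreted Wnt antagonist that was higher in MPdiff (78.2 FPKM against 22.3 in NotoPdiff), had a Foxa2 summit at chr2:80399084-80399184, 48.3 kb away, with a fold enrichment of 16.3, and it too overlapped a T peak.
Camk1d Foxa2: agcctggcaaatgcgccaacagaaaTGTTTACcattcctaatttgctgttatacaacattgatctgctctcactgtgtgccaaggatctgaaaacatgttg
Dusp4 Foxa2: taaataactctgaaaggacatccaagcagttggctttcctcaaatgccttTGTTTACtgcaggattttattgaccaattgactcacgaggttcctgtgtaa
Stx7 Foxa2: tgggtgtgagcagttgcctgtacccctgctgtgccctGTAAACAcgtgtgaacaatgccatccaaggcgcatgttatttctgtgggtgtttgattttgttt
Cyr61 Foxa2: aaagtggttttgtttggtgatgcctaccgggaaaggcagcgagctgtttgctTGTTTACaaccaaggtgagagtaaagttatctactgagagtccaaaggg
Cyr61 T: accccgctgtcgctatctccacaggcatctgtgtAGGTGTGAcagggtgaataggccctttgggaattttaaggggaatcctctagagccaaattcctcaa
Frzb Foxa2: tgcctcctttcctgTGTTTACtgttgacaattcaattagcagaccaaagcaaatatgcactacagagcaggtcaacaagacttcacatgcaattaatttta

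Upk3a, at chr15:85017141-85022560 on the forward strand, had its nearest T summit 4.69 kb and its nearest Foxa2 summit 10.9 kb from its start, and its strongest Foxa2 summit, of 19.8-fold enrichment, at 14.1 kb. Sox17, at chr1:4490928-4497426 on the reverse strand, had no Foxa2 summit within 50 kb, the nearest being 88.1 kb away, and its nearest T summit at 17.2 kb. Id2, at chr12:25093799-25096092 on the reverse strand and higher in MPdiff, had its nearest Foxa2 summit 4.11 kb from its start. Hoxd9, at chr2:74697763-74700208, had its nearest Foxa2 summit at 11.1 kb and its nearest T summit at 65.2 kb.

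At the 3-fold limit, just inside on the NotoPdiff side were Efnb2 (3.01-fold), Fgd4 (3.01-fold) and the cadherin Cdh3 (3.00-fold), and just outside Gstm1 (2.996-fold) and Emb (2.98-fold). On the MPdiff side Wnt5a (3.05-fold), Tshz2 (3.02-fold) and Coro2b (3.01-fold) lay inside and Ngfr (2.97-fold), Khdrbs3 (2.95-fold) and Cited1 (2.95-fold) outside.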

How the data were processed

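RNA-seq libraries (1 for each of 9 conditions) and T and Foxa2 ChIP-seq peak lists were used, and 10 other samples of the series were not analysed here. The authors deposited a table of FPKM, made by their account with TopHat2 2.1.1, Bowtie 1.2.2 and Cufflinks 2.2.1 on mm10 after removal of duplicates by molecular identifiers. The deposited peak lists give fold enrichment over background and -log10 p and q values from MACS3 3.0.0b1, after alignment with Bowtie 1.3.1, called on 1 library per factor. Low values hold whole reads only approximately, so no count test was run.

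From the FPKM the ratio log2((NotoPdiff + 1)/(MPdiff + 1)) was computed for genes with 5 FPKM or more in either culture, and the same ratio for NotoP over MP at each stage. A fold on this scale understates the difference of low genes. The 3-fold limit is 1.585 on the log2 scale. Approximate fragments, their depth and the intervals of ratios were recovered from transcript lengths and the steps between FPKM values of single-exon genes. Of the low values of those genes, 86.0% to 92.1% came out whole within 0.05 fragment, but the steps were fitted on the same genes. For multi-exon genes with a single annotated start, which were not used in the fit, the share was 74.2% to 80.9%. Intervals are 95%. Those of ratios are exact Clopper-Pearson and cover fragment counting error only. Those of shares are Wilson and treat genes as independent draws, without fragment counting error. Gene starts and sequence came from RefSeq GRCm38, and 23799 of 23983 table genes were matched to a start.

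The genes and 27 lists were chosen with earlier results of these data known. A list gene that met the minimum of 5 FPKM in 1 culture alone has its direction set by that minimum. Named genes were the 12 largest differences in each direction, the 15 largest culture-only genes in each with 1 FPKM or more in an embryonic progenitor library, the 5 largest under 1 FPKM, list members that were 3-fold and the 3 genes on either side of the limit, of which 1 is not reported here. Small RNA genes (1 and 2 of the culture-only genes) were counted and not named, and other genes given values (list members under 3-fold) were picked after their values were seen. With 1 library per condition no replicate could be left out. All steps were run with scipy 1.17.1, pandas 2.3.3, matplotlib 3.10.9 and numpy 2.4.6 under Python 3.11.15. The 3-fold and culture-only calls and the recovery of library depth were tested on simulated counts. The peak, motif and interval steps were not. The closing section gives the effect of 92 alternatives fixed at the start and of others added after the data were seen.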

Additional observations from a re-analysis of the deposited data

Results flagged for a closer look

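Among the genes that were 3-fold in culture, 16 had the other sign at both embryonic stages, 7 higher in NotoPdiff and 9 higher in MPdiff, of which 5 and 8 were culture-only. Opposed signs were not counted over all compared genes. The 6 named in the report are given here because culture and embryo point in opposite directions, and the difference was not tested, since each condition had 1 library. Aldh1a2 had a log2 ratio of -2.36 in culture and of 1.36 and 1.86 at E8.5 and E9.5. Cdh11 had -2.11 in culture and 1.36 and 0.07 in the embryo. Hoxb3 had -1.74 in culture and 0.11 and 0.67 in the embryo. Hoxd9 had -3.12 in culture and 1.39 and 0.61 in the embryo. Itga8 had -2.27 in culture and 1.10 and 0.44 in the embryo, where its level was at most 1.14 FPKM. Msx1 had -2.27 in culture and 0.55 and 0.44 in the embryo.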

How the results depend on the processing

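No paired analysis was possible because each condition has 1 library. Of 92 values recomputed under the alternatives fixed at the start, 48 were classed as unchanged by a loose rule and 44 as moved. Counts classed as unchanged could still shift. Genes higher in NotoPdiff went from 271 to 372 at a minimum of 1 FPKM and to 347 at a pseudocount of 0.1. Genes higher in MPdiff went from 86 to 108 at that pseudocount. A share was classed as unchanged within its Wilson interval. A pseudocount of 5 left 88 genes higher in NotoPdiff and 27 in MPdiff, of which 29 and 17 were culture-only, and it kept 67 of the 130 named genes at 3-fold. A pseudocount of 0.1 gave culture-only shares of 19.9% and 36.1%. A minimum of 1 FPKM or none gave 136 culture-only genes and a share of 36.6% on the NotoPdiff side, and a minimum of 10 FPKM gave 169 and 55 3-fold genes, 41 and 29 of them culture-only, and 95% of the former with a summit within 50 kb. A 2-fold limit in culture gave 558 and 213 genes, 212 and 124 culture-only (38.0% of the first), and a 4-fold limit 165 and 51, 36 and 24 culture-only (21.8%). With NMPdiff in place of MPdiff, 147 genes were higher in NMPdiff, 100 of them culture-only (68.0%), and the share on the other side was 38.5%. With E9.5 alone as the embryonic reference, 144 genes (53.1%) and 74.4% were culture-only, and asking only for a lack of the same call at both stages gave 174 (64.2%) and 77 (89.5%). A 2-fold embryonic limit gave 40 (14.8%) and 21 (24.4%), and 5 FPKM in the embryo 44 (16.2%) and 30 (34.9%). In an alternative chosen after seeing the data, 12 and 13 genes had counting intervals under 3-fold at both stages.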
